A study of Mus musculus with 8 samples.

Results

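The 10 genes Atp6v0d1, Atp6v0d2, Atp6v0a1, Tcirg1, Atp6v0c, Atp6v1a, Atp6v1b2, Atp6v1c1, Clcn7 and Ostm1 encode subunits of the vacuolar proton pump (V-ATPase) and its partner in chloride exchange. They were chosen by gene symbol, all 10 were found among the 25239 symbols of the count table, and all 10 were expressed enough to be tested. RNA sequencing had been done on primary calvaria (skull cap) cells of mice, labelled as osteoblasts. The genotype label reads KO(OSX-SphK2) for 4 libraries and WT for 4, and the WT mice were littermates of the knockouts. Sphk2 encodes sphingosine kinase 2, and Osx is the older name of Sp7, a factor needed to form osteoblasts, which the label pairs with the deletion. The sources used here give no age, sex, strain, Cre line, allele carried by the controls or number of animals per library. P-values therefore measure the spread of these libraries, some of which may be technical.

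The V-ATPase is a rotary pump that spends ATP to move protons out of the cytosol. Its V1 sector, with the A, B and C subunits among others, hydrolyses ATP, and its V0 sector, with the a, c and d subunits, carries protons through the membrane. In every cell it acidifies lysosomes and endosomes, and in osteoclasts it is also placed in the ruffled border that dissolves bone mineral. Clcn7 encodes ClC-7, which exchanges chloride for protons in the same membranes, and Ostm1 encodes the protein that ClC-7 needs for stability. In mice, loss of Tcirg1, Clcn7 or Ostm1 gives osteopetrosis, a disease of bone that is not resorbed.

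Total counts ran from 14347495 to 17928713 in the libraries labelled knockout and from 14571389 to 19065421 in the controls. Sphk2 itself stood at 69.7, 72.3, 72.1 and 131 CPM (counts scaled to library size with TMM factors) in knockout-labelled 1 to 4, against 75.8, 64.2, 82.5 and 134 CPM in controls 1 to 4. Sphk2 was thus not lower beyond the spread (edgeR log2 fold change −0.05, SE 0.30, adjusted p = 0.9999), so it gives no check on the labels. Whether its reads fall outside the deleted part cannot be seen in gene counts. The 13 macrophage markers summed to 29715 to 50217 CPM in the knockout-labelled libraries and to 29870 to 39504 CPM in the controls. Lyz2 alone held most of this sum in every library. The 13 osteoblast markers summed to 4165 to 15695 CPM in the knockout-labelled libraries and 6439 to 16911 CPM in the controls. Bglap, the osteocalcin gene of mature osteoblasts, was at 42.3 CPM in knockout-labelled 1 and at most 0.582 CPM in each of the other 7 libraries. The counts do not show which cells held a transcript, and in such bulk samples fewer cells of a type and less RNA per cell cannot be told apart.

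Libraries numbered 4 stood apart, in knockout-labelled and control cells alike. They were separated from the rest on principal component 1, with 73.7% of the variance, and 68.0% of the 12837 tested genes did not overlap between these and the other 6 libraries. The 10 osteoclast markers summed to 6682.5 CPM in knockout-labelled 4 and 9981.5 CPM in control 4, against 244 to 260 CPM in knockout-labelled 1 to 3 and 237 to 340 CPM in controls 1 to 3, with 8 of the 10 higher in the libraries numbered 4 and none at 0 in all libraries. The results below are therefore given with and without number 4.

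Levels per length differed widely among the members. Merged exons take in every annotated transcript of a gene, expressed or not, so comparisons between genes on this scale are approximate. In CPM per kilobase of merged exon, the mean over the libraries labelled knockout was 116 ± 74.2 for Tcirg1, 90.6 ± 21.6 for Atp6v0d1, 72.7 ± 4.14 for Atp6v1a and 68.2 ± 19.5 for Atp6v1b2 (SD, n = 4). In the controls it was 128 ± 117 for Tcirg1, 84.7 ± 28.8 for Atp6v0d1, 66.7 ± 16.7 for Atp6v1a and 73.0 ± 44.4 for Atp6v1b2 (SD, n = 4). These SDs are over libraries, number 4 among them, and do not measure how far genes differ within a library. Atp6v0d1 was above Atp6v1a in every library. In numbers 1 to 3 Tcirg1 lay between 60.9 and 84.1 and Atp6v0d1 between 66.3 and 83.45, so the lead of Tcirg1 rests on number 4. Clcn7 came next by mean, at 35.6 ± 2.81 in the libraries labelled knockout and 35.2 ± 9.05 in the controls (SD, n = 4). Close to it was Atp6v0a1, at 34.5 ± 9.64 in the libraries labelled knockout and 26.6 ± 8.01 in the controls (SD, n = 4). In numbers 1 to 3 Clcn7 lay between 26.9 and 36.6 and Atp6v0a1 between 29.8 and 40.4. Lower means were found for Atp6v1c1 (22.5 in the libraries labelled knockout and 22.8 in the controls) and Ostm1 (12.2 in the libraries labelled knockout and 12.4 in the controls). Atp6v0d2 lay between 2.18 and 6.20 in numbers 1 to 3, at 45.7 in knockout-labelled 4 and at 118 in control 4, and Atp6v0c was lowest of the 10 at 1.97 ± 0.41 CPM per kilobase in the libraries labelled knockout and 2.05 ± 0.52 in the controls (SD, n = 4).

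In the V1 sector, Atp6v1a, the catalytic A subunit (chromosome 16, 44085402 to 44139705, minus strand, GRCm38), stood at 473, 414, 439.6 and 431 CPM in knockout-labelled 1 to 4, against 394, 321, 349 and 548 CPM in controls 1 to 4. Knockout-labelled 1 to 3 were all above controls 1 to 3, while control 4 was the highest of the 8. Atp6v1b2, the widely expressed B subunit (chromosome 8, 69088646 to 69113711, plus strand), stood at 311, 301, 318 and 516 CPM in the knockout-labelled libraries, against 284, 247, 278 and 739 CPM in the controls. Again the first 3 of each genotype did not overlap, and the library numbered 4 was far above them in each. Atp6v1c1, the C subunit of the stalk (chromosome 15, 38661933 to 38692446, plus strand), stood at 118, 109, 120.3 and 157 CPM in the knockout-labelled libraries, against 112, 92.6, 108 and 197 CPM in the controls, with overlap also among numbers 1 to 3. The kidney-type B subunit gene Atp6v1b1 had no count in any library, and Atp6v1c2 had at most 3 counts in a library.

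Among the V0 subunits, Atp6v0d1, the d subunit found in most tissues (chromosome 8, 105524465 to 105566047, minus strand), stood at 149.6, 137, 143 and 220.2 CPM in knockout-labelled 1 to 4, against 133, 119, 127 and 229 CPM in controls 1 to 4. Its paralogue Atp6v0d2, a d subunit prominent in osteoclasts and needed in mice for their full fusion (chromosome 4, 19876841 to 19922605, minus strand), had the widest range of the 10. It stood at 11.0, 11.5, 16.8 and 124 CPM in the knockout-labelled libraries, against 5.93, 8.09, 6.17 and 321 CPM in the controls. Both genes were higher in knockout-labelled 1 to 3 than in any of controls 1 to 3, and both were lower in knockout-labelled 4 than in control 4. No 50-base window of either gene's transcripts occurred in another gene, so their reads can be told apart.

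The a subunits direct the pump to its membrane, and the a1 and a3 genes stood on opposite sides of the other libraries in number 4. Atp6v0a1 (chromosome 11, 101009452 to 101063719, plus strand) stood at 265, 263, 244 and 132 CPM in the knockout-labelled libraries, against 211, 196, 195 and 96.6 CPM in the controls. It was lowest in number 4 of each genotype, and every library labelled knockout was above the control of its number. Tcirg1, the a3 subunit of lysosomes and the osteoclast ruffled border (chromosome 19, 3896050 to 3907133, minus strand), stood at 364, 336, 387 and 1044 CPM in the knockout-labelled libraries, against 329.6, 280.4, 351 and 1395 CPM in the controls. Number 4 was the highest library of each genotype, and numbers 1 to 3 overlapped. Atp6v0c, the proton-carrying ring subunit (chromosome 17, 24163866 to 24169702, minus strand), stood at 6.14, 5.43, 6.39 and 8.67 CPM in the knockout-labelled libraries, against 6.77, 5.17, 6.46 and 9.37 CPM in the controls. Of the 50-base windows in its protein-coding transcripts, 27.1% also occur in the pseudogenes Atp6v0c-ps1 or Atp6v0c-ps2, and the sources used here do not say how such reads were counted, so its level is uncertain.

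Of the chloride exchange pair, Clcn7 (chromosome 17, 25133391 to 25162104, plus strand) stood at 193, 173, 181 and 206 CPM in knockout-labelled 1 to 4, against 171, 142, 177 and 254 CPM in controls 1 to 4. Ostm1 (chromosome 10, 42583822 to 42702459, plus strand) was the steadiest member, at 87.6, 91.7, 89.0 and 84.9 CPM in the knockout-labelled libraries, against 96.7, 91.3, 86.5 and 82.3 CPM in the controls. The ratio of Clcn7 to Ostm1 per length was 3.01, 2.56, 2.77 and 3.32 in the libraries labelled knockout and 2.41, 2.13, 2.80 and 4.21 in the controls, so number 4 had the highest ratio of each genotype. An antisense gene, Gm15200, overlaps 5.7% of the exon length of Ostm1, and without a stated strand setting its reads cannot be told apart there.

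**Figure D1:**
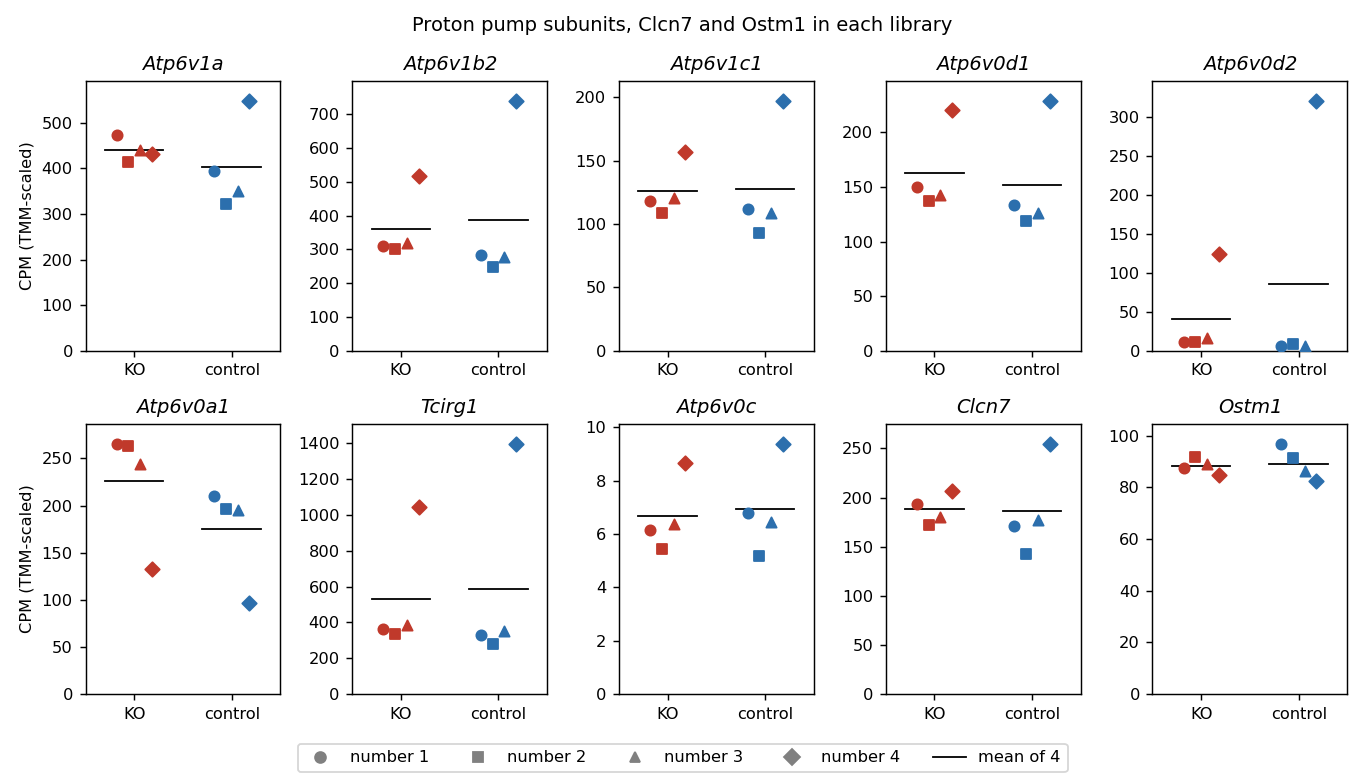
CPM of each of the 10 genes in every library, with libraries labelled KO left of controls, 1 marker shape per library number and a line at the mean of 4. The diamonds of number 4 stand above the other libraries for 7 genes and below them for Atp6v0a1 and Ostm1 (34.2% and 33.8% of all genes tested), and Tcirg1 reaches 1044 CPM in KO 4 and 1395 CPM in control 4.

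Paralogue shares followed the library number. Per length, Atp6v0d2 made up 4.65%, 5.23%, 7.21% and 27.1% of the d1 and d2 level in knockout-labelled 1 to 4, against 2.85%, 4.30%, 3.12% and 48.1% in controls 1 to 4. Knockout-labelled 1 to 3 were all above controls 1 to 3, and in number 4 the control had the larger share. Tcirg1 made up 61.4%, 59.1%, 64.0% and 88.5% of the level of the 4 a subunits in the libraries labelled knockout, against 62.6%, 59.7%, 64.8% and 92.4% in the controls. Atp6v0a1 made up 31.4%, 32.6%, 28.3% and 7.88% in the libraries labelled knockout, against 28.1%, 29.3%, 25.4% and 4.49% in the controls. Its share was higher in the library labelled knockout in each of the 4 pairs. Atp6v0a2, the a subunit of the Golgi and endosomes, held most of the remainder, at 3.66% to 8.31% in the libraries labelled knockout and 3.12% to 11.0% in the controls, while Atp6v0a4 held at most 0.0425% in the libraries labelled knockout and 0.0499% in the controls. These shares are descriptions, with no test, and their size depends on the merged exon lengths used.

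**Figure D2:**
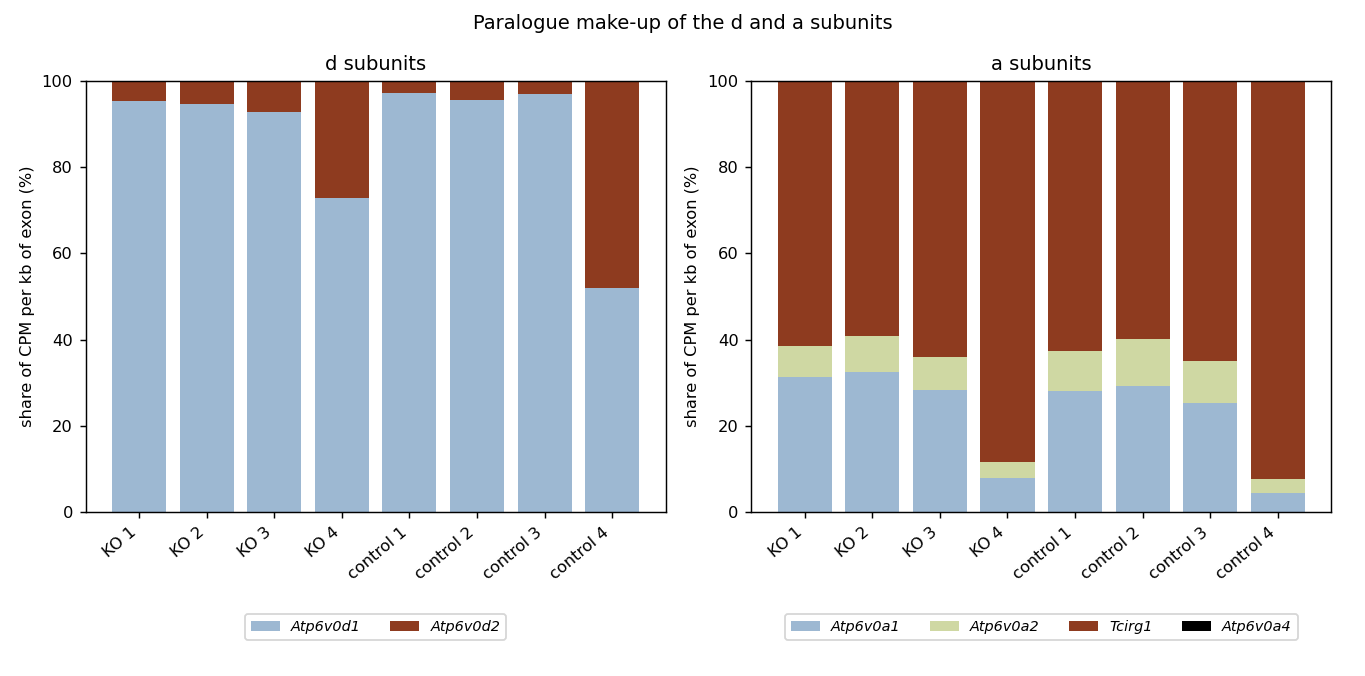
Share of the length-scaled level (CPM per kb of exon, in percent) held by each d subunit (left) and each a subunit (right) in every library. In KO 4 and control 4, Atp6v0d2 holds 27.1% and 48.1% of the d subunits and Tcirg1 88.5% and 92.4% of the a subunits.

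The genotypes were compared with edgeR's quasi-likelihood test over all genes, with Benjamini-Hochberg adjustment and a threshold of 0.05. With all 8 libraries 0 of the 10 members passed, and 0% of the 12837 genes tested did. The adjusted p of each member was 0.9999, 0 members had an unadjusted p under 0.05, and 631 of all genes did. DESeq2 (1.37% of all genes) and limma-voom (0%) also called 0 members, and DESeq2 gave no adjusted p for Atp6v0d2. All 10 overlapped between genotypes, where 3.59% of all genes did not. Of the members 4 had a positive and 6 a negative log2 fold change, and their median was −0.016, beside −0.016 over all genes. The intervals were wide, with a log2 fold change of −1.06 for Atp6v0d2 (SE 1.52, 95% interval −4.59 to 2.46), −0.14 for Tcirg1 (SE 0.63, −1.60 to 1.31), and −0.10 for Atp6v1b2 (SE 0.39). The value of Atp6v0d2 was 2.59 without control 4 and −2.70 without knockout-labelled 4. Ostm1 had the narrowest interval, at −0.01 (SE 0.09, −0.23 to 0.20). Each member's log2 CPM was also compared by permuting libraries exactly, 4 against 4 and two-sided, which gave p of 0.371 to 0.971, where 0.0286 is the smallest possible.

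No label states a pairing, and pairs by number were inferred from these same counts, so p-values of the paired models depend on that choice. With libraries paired by number, Atp6v0a1 rose by 0.38 on the log2 scale (SE 0.06, 95% interval 0.25 to 0.52, adjusted p = 0.0385, edgeR). It was the single member called, 1 of 10, against 2.49% of all genes tested in this model (1.31% higher, 1.18% lower). The library labelled knockout held 1.26, 1.34, 1.25 and 1.37 times the CPM of its control in pairs 1 to 4, and 15.4% of all genes were higher in 4 of 4 pairs. Without the pair numbered 1, 2 or 3 the call was lost, with edgeR adjusted p of 0.205, 0.253 and 0.337, and 0 of all genes passed in those models. The log2 fold change there was 0.38 to 0.40.

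The other members split by pair. In pairs 1 to 3 most members were higher in the library labelled knockout, 8, 10 and 9 of 10, with median log2 differences of 0.16, 0.27 and 0.16. In pair 4, 2 of 10 were higher and 8 lower, with a median of −0.31, while the median over all tested genes was between −0.01 and 0.01 in each pair. One and the same pattern, higher in pairs 1 to 3 and lower in pair 4, was shown by 7 members, Atp6v0d1, Atp6v0d2, Tcirg1, Atp6v1a, Atp6v1b2, Atp6v1c1 and Clcn7, and by 11.9% of all genes. The CPM of Atp6v0d2 in the library labelled knockout was 1.86 times that of its control in pair 1 (95% exact binomial interval 1.46 to 2.38), 1.42 times in pair 2 (1.14 to 1.76), 2.73 times in pair 3 (2.18 to 3.44) and 0.387 times in pair 4 (0.366 to 0.409). For Tcirg1 the ratios were 1.10, 1.20, 1.10 and 0.748, and for Atp6v1a 1.20, 1.29, 1.26 and 0.787. The intervals cover counting error alone. In pair 4, 9 of 10 osteoclast markers were lower in knockout-labelled 4 and 1, Calcr, was higher (5.75 CPM in knockout-labelled 4 and 3.71 CPM in control 4). Mmp9 and Acp5 made up most of their sum. Osteoblast markers were lower in 11 of 13, with sums of 4165 CPM in knockout-labelled 4 and 6439 CPM in control 4. Of these sums Spp1, which was higher in number 4 than elsewhere, held 1472 CPM and 1860 CPM. Macrophage markers were higher in 9 of 13, with sums of 50217 CPM in knockout-labelled 4 and 35749 CPM in control 4. Lyz2 made up most of these sums, at 34460 CPM in knockout-labelled 4 and 20611 CPM in control 4. The 4 that were lower in knockout-labelled 4 were Cd68, C1qa, C1qb and Fcgr1. The part of these lists in the members' values was not tested.

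**Figure D3:**
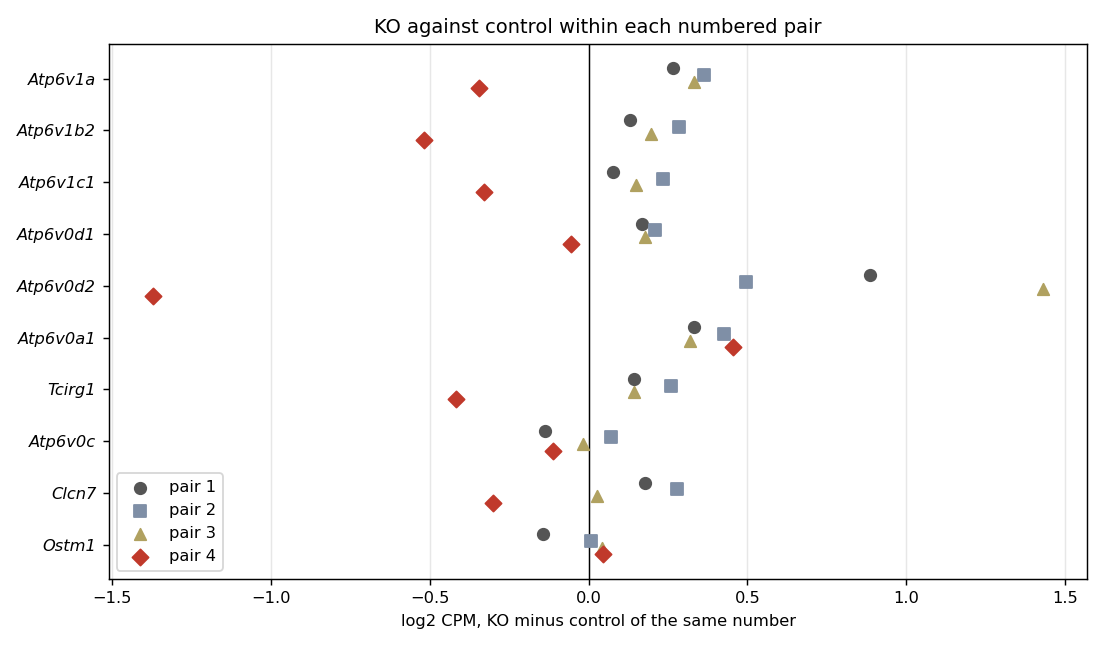
Difference in log2 CPM, library labelled KO minus the control of the same number, for each gene and each of the 4 pairs. For 7 genes the diamond of pair 4 lies left of 0 and the other pairs right of it, while Atp6v0a1 lies right of 0 in 4 of 4 pairs.

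With number 4 left out of both groups, which left 3 libraries per genotype, 3 of 10 members rose and 0 fell, against 7.78% higher and 6.29% lower (14.1% in all) of the 12919 genes tested, by edgeR without pairing. Atp6v0d2 rose by 0.97 (SE 0.20, adjusted p = 0.0144), Atp6v0a1 by 0.36 (SE 0.06, adjusted p = 0.00675) and Atp6v1a by 0.32 (SE 0.09, adjusted p = 0.046) on the log2 scale. Atp6v1b2 (0.20, SE 0.07, adjusted p = 0.0877) and Atp6v0d1 (0.19, SE 0.07, adjusted p = 0.0966) did not pass. In these 6 libraries 5 of 10 members did not overlap between genotypes and were higher in the libraries labelled knockout, as were 18.2% of all genes (34.6% in either direction). The members' median log2 fold change was 0.18 and that of all genes −0.005.

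Pairing numbers 1 to 3 by number raised the calls to 6 of 10 members, again all higher, against 12.3% of all genes higher and 11.9% lower (24.2% in all). Beyond the 3 named, these were Atp6v0d1 (log2 fold change 0.19, SE 0.05, adjusted p = 0.0218), Tcirg1 (0.18, SE 0.05, adjusted p = 0.0248) and Atp6v1b2 (0.21, SE 0.05, adjusted p = 0.0164). Atp6v1c1 (0.16, adjusted p = 0.0594) and Clcn7 (0.16, adjusted p = 0.0698) did not pass, nor did Atp6v0c (−0.03, adjusted p = 0.923) and Ostm1 (−0.03, adjusted p = 0.754). The 95% interval of Ostm1 ran from −0.15 to 0.09. Of the 6 called, 5 rose by 0.18 to 0.36 and Atp6v0d2 by 0.95 on the log2 scale. In the same 6 libraries 2 of 7 tested osteoclast markers fell and 0 rose, and of 13 macrophage markers 4 rose and 4 fell, in the paired model. The osteoclast markers that fell were Dcstamp (log2 fold change −2.25, adjusted p = 0.00365) and Itgb3 (−0.94, adjusted p = 0.00346). Of the 7, 4 had a positive and 3 a negative value. Of 10 tested osteoblast markers 6 had a positive and 4 a negative value, and 2 rose and 0 fell. These 2 were Spp1, the osteopontin gene (log2 fold change 0.62, adjusted p = 0.000213), and Dmp1 (3.44, adjusted p = 0.0494). Without pairing neither Spp1 nor Dmp1 passed (edgeR adjusted p = 0.0831 and 0.169), while Dcstamp and Itgb3 did (0.0118 and 0.0256). Dmp1 stood at 13.7, 0.761 and 0.778 CPM in knockout-labelled 1 to 3, against 0.370, 0.281 and 0.291 CPM in controls 1 to 3. Spp1 was above all other libraries in number 4 of both genotypes, where 8 of the 13 osteoblast markers were below them. The part of these markers in the members' values was not tested.

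**Figure D4:**
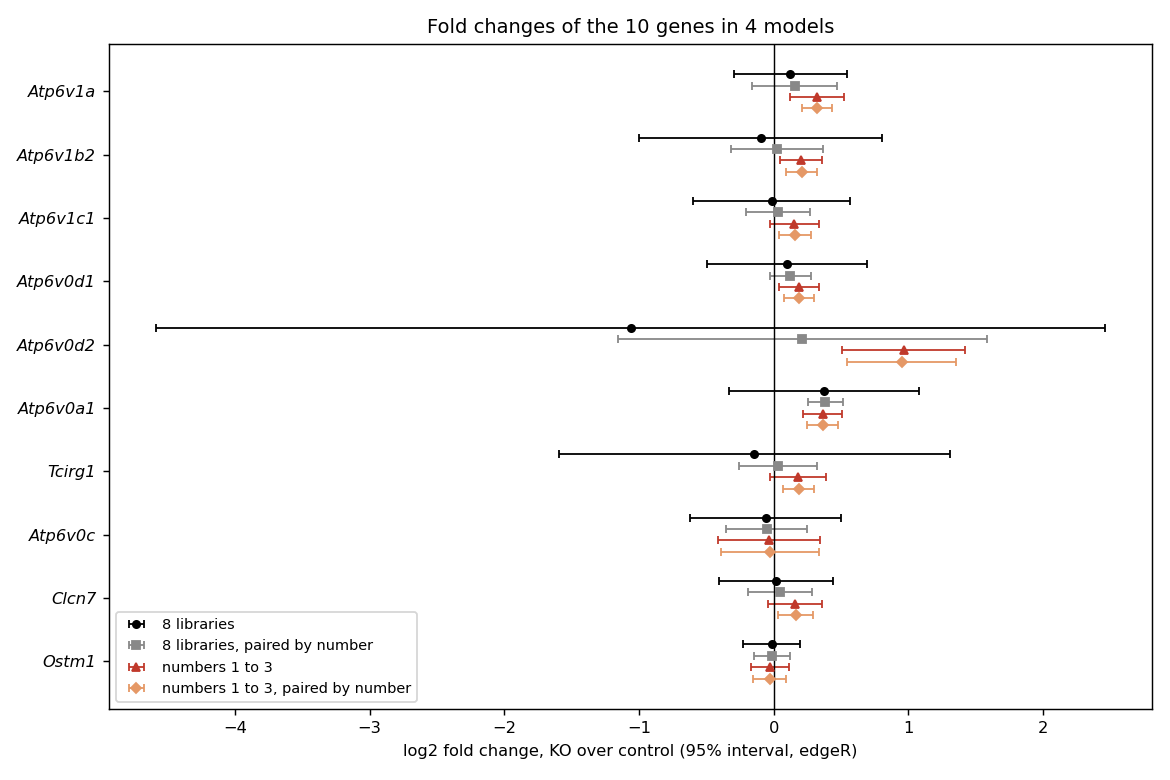
Log2 fold change of each gene, KO over control, with its 95% interval from edgeR in 4 models (all 8 libraries or numbers 1 to 3, each without and with pairing by number). The interval of Atp6v0d2 runs from −4.59 to 2.46 with all 8 libraries and from 0.51 to 1.42 in numbers 1 to 3, and Atp6v0a1 lies at 0.36 to 0.38 in all 4 models.

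The promoters of 3 members are shown because Atp6v0d1, Atp6v1a and Clcn7 shared the pattern of the pairs and also hold the E-box CACGTG, the core of the element bound by TFEB-type factors at lysosomal genes. RefSeq's table (GRCm38.p6) held 12 promoters for 7 of the 10 members and none for Atp6v0d2, Atp6v1b2 and Atp6v1c1. Windows of 180 bases ran from 150 bases before the start in that table to 30 bases of the transcript. The windows of Atp6v1a, Atp6v0a1 and Ostm1 lie wholly inside the gene bounds given above, so sequence before the outer 5′ ends of these genes was not searched. Windows are printed 5′ to 3′ on the gene's strand with CACGTG in capitals.
Atp6v0d1, chr8:105566035-105566214, minus strand: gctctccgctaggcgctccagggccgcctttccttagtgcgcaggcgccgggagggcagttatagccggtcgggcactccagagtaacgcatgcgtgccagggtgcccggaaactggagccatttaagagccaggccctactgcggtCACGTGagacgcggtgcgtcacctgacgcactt
Atp6v1a, chr16:44139230-44139409, minus strand: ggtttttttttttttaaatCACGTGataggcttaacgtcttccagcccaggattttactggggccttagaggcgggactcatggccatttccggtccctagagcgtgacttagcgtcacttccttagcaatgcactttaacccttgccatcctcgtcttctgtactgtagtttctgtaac
Clcn7, chr17:25133241-25133420, plus strand: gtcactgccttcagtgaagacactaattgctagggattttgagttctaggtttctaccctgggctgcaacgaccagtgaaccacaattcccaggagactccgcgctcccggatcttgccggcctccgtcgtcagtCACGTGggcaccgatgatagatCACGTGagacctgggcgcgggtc
The motif, which reads the same on both strands, was found in 3 of the members' 12 windows, in 4 of 25 windows (16.0%) of the other V-ATPase genes and in 5.09% of all 32851 windows. Those 4 belong to Atp6v0b, Atp6v0e, Ccdc115 and Vma21. Atp6v0e fell in numbers 1 to 3 with pairing, as did 11.9% of all genes. Among those 4 genes Ccdc115 alone was higher in pairs 1 to 3 and lower in pair 4. The longer form TCACGTG, of which CACGTG is part, was found on either strand in windows of the same 7 genes and in 2.86% of all windows. No window of Atp6v0a1, Tcirg1, Atp6v0c or Ostm1 held these letters, although Tcirg1 shared the pattern of the pairs. A link between motif and pattern was not tested. Of the 4 genes of that factor family, Tfeb, Tfe3, Mitf and Tfec, 0 passed with all 8 libraries, paired or not. In numbers 1 to 3 with pairing 1 of the 4, Tfec, rose (edgeR adjusted p = 0.0131), a share near the 24.2% of all genes called there. Tfeb, a main regulator of lysosomal genes, stood at 36.2 to 40.9 CPM in the knockout-labelled libraries and 32.6 to 45.2 CPM in the controls. Tfe3 stood at 168 to 194 CPM in the knockout-labelled libraries and 167 to 191 CPM in the controls, and for neither gene were both libraries numbered 4 above or below all the others.

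The rest of the V-ATPase was counted from a list of 27 further subunit, accessory and assembly genes, of which 21 were tested. With all 8 libraries 0 of 21 passed in edgeR, with or without pairing, and 0 had an unadjusted p under 0.05 without it. Their median log2 fold change was −0.11, with 5 positive and 16 negative values. The 6 with the smallest unadjusted p were Atp6v0a2 (−0.16, SE 0.09), the V-ATPase-associated Tbc1d24 (−0.15, SE 0.11), the stalk subunit Atp6v1g1 (−0.18, SE 0.14), the assembly factor Dmxl1 (0.37, SE 0.42), the stalk subunit Atp6v1e1 (−0.25, SE 0.31) and Atp6v1g2 (−0.19, SE 0.25), each with an adjusted p of 0.9999. In numbers 1 to 3 without pairing the single call was Atp6v1d, the D subunit of the central stalk, which rose (0.23, adjusted p = 0.0347), so 1 of 21 was called where 14.1% of all genes were. With pairing 6 of 21 were called, a share near the 24.2% of all genes: Atp6v1d and Dmxl1 rose, and Atp6v0a2, Atp6v0e, Dmxl2 and Tbc1d24 fell. The 4 that fell, by 0.16 to 0.33 on the log2 scale, include the a2 and e subunits of V0, and the difference from the members was not tested.

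Number 4 stood apart across the complex as well. Of the 11 other subunits tested, 9 were above all other libraries in both knockout-labelled 4 and control 4 and 0 were below them, against 34.2% and 33.8% of all genes. Atp6v1d stood at 83.0, 80.2, 77.5 and 152 CPM in the knockout-labelled libraries and at 69.1, 65.9, 71.1 and 244 CPM in the controls. Within pair 4, 11 of these 11 subunits were lower in the library labelled knockout, with a median log2 difference of −0.29. In pairs 1, 2 and 3 the medians were −0.17, 0.04 and −0.12.

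**Figure D5:**
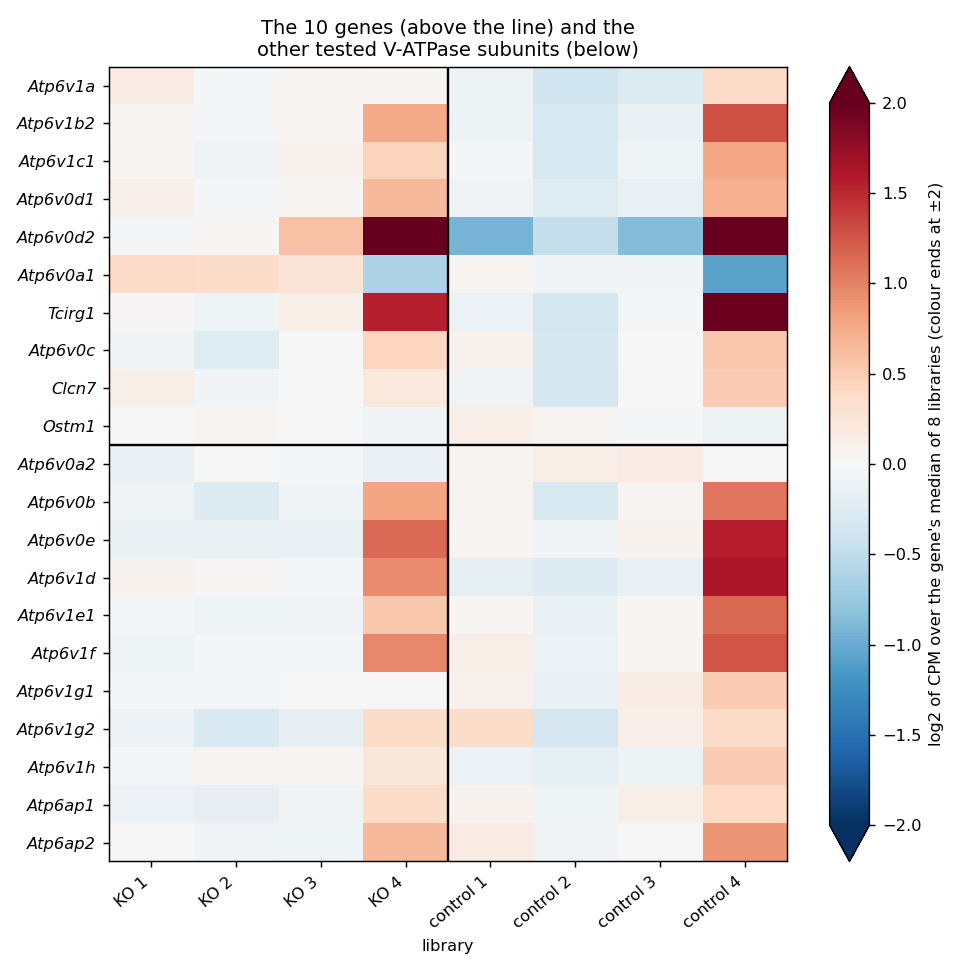
Log2 of the CPM over the gene's own median of 8 libraries for the 10 genes (above the line) and the 11 other tested V-ATPase subunits (below), with KO libraries left of controls. Columns KO 4 and control 4 are red for most subunits, and Atp6v0a1 is blue in them, at −0.62 and −1.07.

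Of the 12 further genes listed for acid and chloride handling, 10 were tested and 0 passed with all 8 libraries, paired or not. Car2, the carbonic anhydrase that supplies protons in osteoclasts, was dropped by the low-count filter, with few or no counts in numbers 1 to 3. It stood at 0 to 0.186 CPM in knockout-labelled 1 to 3 and 38.5 CPM in knockout-labelled 4. In controls 1 to 3 it stood at 0 to 0.731 CPM, and in control 4 at 106 CPM. Slc4a2, the anion exchanger that brings chloride into osteoclasts, stood at 81.0, 90.2, 94.1 and 130.2 CPM in the knockout-labelled libraries, against 85.9, 89.1, 93.5 and 207 CPM in the controls. In numbers 1 to 3 without pairing, 2 of 10 rose and 0 fell, where 7.78% of all genes were called higher. These were Plekhm1 (log2 fold change 0.43, adjusted p = 0.0124, edgeR) and Snx10 (0.29, adjusted p = 0.0286), and Slc4a2 did not pass (−0.014, adjusted p = 0.916). With pairing Clcn5 was called as well (0.35, edgeR adjusted p = 0.0147), so 3 of 10 rose and 0 fell, where 12.3% of all genes were called higher. Plekhm1, which acts in lysosome transport and fusion, stood at 231, 219, 236 and 117 CPM in the knockout-labelled libraries, against 177, 148, 186 and 127 CPM in the controls. Snx10, a sorting nexin of endosomes, stood at 100.2, 97.0, 101 and 124 CPM in the knockout-labelled libraries, against 88.0, 73.8, 82.3 and 166 CPM in the controls. Of the exchangers related to Clcn7, Clcn3 was at 47.5 to 51.5 CPM in the knockout-labelled libraries and 40.5 to 49.5 CPM in the controls. Clcn5 stood at 9.47 CPM in knockout-labelled 4 and at 45.7 CPM or more in knockout-labelled 1 to 3, against 6.08 CPM in control 4 and 32.1 to 40.9 CPM in controls 1 to 3. It was thus lowest where Clcn7 was highest.

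Profiles most like those of 3 members were found by the root mean square difference of log2 CPM, each gene centred on its own mean, over 8 libraries and 11526 genes. For Tcirg1 these were Mfsd12 (0.0873), Coq4 (0.101), Psmb9 (0.104), Acsl1 (0.11) and Aifm2 (0.11). Psmb9, an immunoproteasome subunit, stood at 69.6 CPM in knockout-labelled 4 and 81.5 CPM in control 4, and at most at 25.4 CPM elsewhere. For Clcn7 they were Nlrc5 (0.0434), Surf6 (0.0616), Ovca2 (0.0641), Etfrf1 (0.0664) and Coq8b (0.0691). For Atp6v0d2 the nearest were Ccr3 (0.39), Grap (0.42), Gas7 (0.46), Pltp (0.46) and Camk2a (0.47). The measure is not scaled to a gene's own range, which was widest for Atp6v0d2, so its size cannot be compared between the 3 members. Ccr3, a chemokine receptor, stood at 8.23 CPM in knockout-labelled 4 and 22.2 CPM in control 4 and at most at 1.89 CPM elsewhere. The 8 libraries include the outlying pair numbered 4, in which all 10 neighbours of Atp6v0d2 and Tcirg1 were above all other libraries, while Etfrf1 in knockout-labelled 4 (20.7 CPM) was not above the highest of numbers 1 to 3. No test was made of these likenesses.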

How the data were processed

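The authors deposited raw read counts by gene symbol for 8 libraries of polyadenylated RNA. STAR 2.7.11b and featureCounts 2 were used on GRCm38 (mm10), per the submitters' processing notes, and the annotation, strand and multi-mapping settings are not given in the sources used here. GENCODE M21 (GRCm38) gave coordinates and exon lengths for 96.4% of the symbols. Group and number came from sample titles. Counts were tested here with edgeR 4.0.16 in R 4.3.3 (filterByExpr, TMM, quasi-likelihood F test with robust dispersion, genotype alone), Benjamini-Hochberg over all genes. CPM used TMM factors, and log2 CPM a prior count of 2. Alternatives were DESeq2 1.42.0, limma-voom 3.58.1, other size factors, no filter, left-out libraries, and pairing by number. Code was tested on simulated data.

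Deviations of log2 CPM from the group mean gave, for libraries of one number, r across genes of 0.46 to 0.829, or 0.161 to 0.376 among numbers 1 to 3, above the minimum of 0.1, so numbers were taken as pairs, from the data and no label. Unlike numbers reached 0.572 with all 8. Chi-square per degree of freedom between libraries of a genotype was 8.56 to 307, above counting error alone. Each library was counted as a sample, though this value cannot tell separate animals from separate preparations. Members, lists and the setting apart of number 4 were chosen with earlier results of these data known. Named besides the 10 members were, by rule, 6 further V-ATPase genes with the smallest p, set paralogues, acid and chloride genes and TFEB-type factors, and the genes of nearest profile. Genes named as passing in numbers 1 to 3 were chosen after their values were seen.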

Additional observations from a re-analysis of the deposited data

Results flagged for a closer look

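The 10 members, Sphk2 and the other genes named by rule, apart from those of nearest profile, were screened within each genotype of 4 libraries for a library far from the other 3, by the gap to its neighbour over the range. Of 56 such groups with counts, 21 stood out, 20 of them on a library numbered 4. Chance marks about 1 in 20 groups, but these genes were chosen with earlier results known, and 68.0% of all genes tested also set the libraries numbered 4 apart. Atp6v1d and Atp6v0e2, chosen after their values were seen, were screened in addition and are not in that count. High in number 4 were Atp6v0d1 (220.2 CPM in knockout-labelled 4 and 229 CPM in control 4), Atp6v0d2 (124 and 321 CPM), Tcirg1 (1044 and 1395 CPM), Atp6v1b2 (516 and 739 CPM), Atp6v1e1 (201 and 305 CPM), Atp6v1d (152 and 244 CPM), Snx10 (124 and 166 CPM) and Car2 (38.5 and 106 CPM), in the same order of libraries. Low in number 4 was Atp6v0a1 (132 CPM in knockout-labelled 4 and 96.6 CPM in control 4). In 1 genotype alone the screen marked Sphk2 (131 CPM), Clcn5 (9.47 CPM, low) and Plekhm1 (117 CPM, low) in knockout-labelled 4, and Slc4a2 (207 CPM) in control 4. Atp6v1c2 in control 3 (0.175 CPM) rests on 3 counts. Atp6v0e2, an alternative e subunit, stood at 21.3 CPM in knockout-labelled 4, from 293 counts, against 0.42 CPM in control 4 and at most 0.434 CPM in the rest.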

How the results depend on the processing

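Over all genes edgeR called 0, DESeq2 176, the replicate block (pairing by number) 319, number 4 left out 1817, and both together 3132, and leaving out 1 library or number gave 0 to 38. Members called numbered 1 with the block, 3 without number 4 and 6 with both, and 0 in the other settings run. Other V-ATPase genes called numbered 1 without number 4 and 6 with the block as well. With all 8 libraries the block changed the call of Atp6v0a1 and of no other member, and with number 4 left out it added the calls of Atp6v0d1, Tcirg1 and Atp6v1b2. Direction turned for Atp6v0d2, Tcirg1, Atp6v1b2 and Atp6v1c1, to log2 fold changes of 0.42, 0.029, 0.020 and 0.032 with limma-voom, 0.21, 0.032, 0.024 and 0.033 with the block, 0.97, 0.18, 0.20 and 0.15 without number 4, and 0.95, 0.18, 0.21 and 0.16 with both. Leave-outs of 1 library or number ranged from −0.082 to 0.36 for Atp6v0d1, −2.70 to 2.59 for Atp6v0d2, −0.70 to 0.73 for Tcirg1, −0.21 to 0.11 for Atp6v0c, −0.32 to 0.42 for Atp6v1b2, −0.14 to 0.27 for Atp6v1c1, −0.087 to 0.20 for Clcn7 and −0.055 to 0.030 for Ostm1. The ends of the Atp6v0d2 range are those without knockout-labelled 4 (−2.70) and without control 4 (2.59). The cause of these changes was not tested. Of 180 member values under the alternatives, 40 turned direction and 134 kept direction and side of the threshold, and Atp6v0a1 and Atp6v1a kept a positive value in all 18 each. Depth limits Atp6v0c, which had 92 to 134 counts in a library.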
